A study of Mus musculus with 12 samples.

Results

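Nodal and activin signalling was examined in mouse embryonic stem (ES) cells of the E14 line through 9 genes: the ligand genes Nodal and Inhbb, the receptor gene Acvr2b, the coreceptor gene Tdgf1, the antagonist genes Lefty1, Lefty2 and Cer1, and the intracellular inhibitor genes Smad7 and Skil. The members were every array probe annotated with one of these symbols. They were 9 probes of 8 genes, out of 46133 probes on the array and 17658 genes with a probe of their own. Smad7 was not analysed here. The 12 one-colour bead arrays measured total RNA from 3 cultures with a short hairpin RNA against Jmjd1a (also named Kdm3a), 3 with one against Jmjd2c (Kdm4c) and 6 with one against firefly luciferase (Luc), which mouse cells lack. Both targets encode demethylases of lysine 9 of histone H3. All cultures grew without feeder cells on gelatin, in serum with LIF, and all received 2 µg of hairpin in a puromycin-resistance plasmid. The labels describe 1 hairpin per target, so no second hairpin tests whether an effect belongs to the target. Luc cultures were kept in puromycin (1.0 µg/ml) over 4 days before harvest, and the knockdown cultures were put under puromycin too, with a dose and time that the sources used here do not give.

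The knockdowns were each set against 3 Luc arrays: Jmjd1a against Luc replicates 1 to 3 (Luc 1-3) and Jmjd2c against Luc replicates 4 to 6 (Luc 4-6). The labels do not name this pairing. It was set by the plan of this work, with earlier results of these data known, in which the Luc triplets stood apart. The correlation of log2 values between arrays was 0.986 to 0.988 for Jmjd1a with Luc 1-3 and 0.980 to 0.983 for Jmjd2c with Luc 4-6. The opposite pairings were not correlated here, so these values do not show which pairing is closer. The series text describes a comparison with all 6 Luc arrays, and that version is given beside each member's change. The Luc triplets stood apart, with a correlation of 0.962 to 0.964 between Luc 4-6 and Luc 1-3 arrays, and of 0.995 to 0.997 within triplets. The Luc cultures were therefore also compared with each other, as Luc 4-6 against Luc 1-3. Mean intensity per array was 236 to 245. An intensity of 32 was used as the floor, and the 15853 probes above it on at least 3 arrays were tested. Changes are differences of mean log2 intensity, the first-named group minus the second. A probe was called where limma's adjusted p was under 0.05. The number of arrays limits the precision, and the p-values measure the spread between cultures that the series calls biological replicates.

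The hairpins lowered their targets. Kdm3a read 809.8 ± 35.8 in Jmjd1a arrays and 2145 ± 164 in Luc 1-3 arrays, and Kdm4c read 104 ± 2.36 in Jmjd2c arrays and 271 ± 6.14 in Luc 4-6 arrays (SD, n = 3 each). Of 10 ES cell markers 9 had a probe and 8 were tested, Dppa5a being below the floor. In Jmjd1a arrays 3 of the 8 were lower (Nanog at 81.6% of its Luc 1-3 level, Zfp42 at 73.1% and Fgf4) and 0 higher. In Jmjd2c arrays 3 were lower (Nanog at 75.9% of its Luc 4-6 level, Sox2 at 88.1% and Fgf4) and 1 higher (Sall4). Pou5f1 passed in neither knockdown. Against all 6 Luc arrays the Jmjd2c calls on Nanog (adjusted p = 0.109), Sox2 (0.111) and Sall4 (0.58) were lost. Those on Fgf4 for Jmjd2c (0.00418) and on Nanog (0.0102), Zfp42 (0.0213) and Fgf4 (0.00334) for Jmjd1a held. Nanog was called higher in Luc 4-6 than in Luc 1-3 arrays, at 121%. Pou5f1 (70.5%), Utf1 (71.3%), Sall4 (71.9%) and Zfp42 were called lower there. Of all tested genes 28.1% were called in the Jmjd1a and 42.4% in the Jmjd2c comparison. Fgf4 was near the floor, at 29.3 in Jmjd1a and 31.2 in Jmjd2c arrays. Of 8 fibroblast markers 5 (Col1a1, Col1a2, Col3a1, Lum and Postn) were below the floor on every array and 2 were tested. Thy1 was lower in both knockdowns, at 58.8% in Jmjd1a and 43.1% in Jmjd2c arrays. It was near the floor there, at 37.1 to 51.1 on the Jmjd1a arrays and 23.0 to 61.0 on the Jmjd2c arrays. Of the Jmjd2c arrays 2 of 3 were above the floor, so that percentage depends on it. Pdgfrb was lower in Jmjd2c arrays (61.9%) and 2.12-fold higher in Luc 4-6 than in Luc 1-3 arrays. Markers of extraembryonic endoderm, a tissue that also makes Lefty1 and Cer1 in the embryo, differed between groups. The summed intensity of the 10 endoderm markers, with values below 0 counted as 0, was 804 to 948 in Jmjd1a arrays and 1853 to 1927 in Luc 1-3 arrays, and 2687 to 2975 in Jmjd2c arrays and 868 to 888 in Luc 4-6 arrays. Sox7, Afp and Ttr of that list were below the floor on every array, and 6 were tested. Of these 4 were lower in Jmjd1a and 4 were called higher in Jmjd2c arrays. In Luc 4-6 arrays 5 were called lower and 1 higher than in Luc 1-3 arrays. Of all tested genes 28.1%, 42.4% and 61.8% were called in these 3 comparisons. Sox17 entered the test only through the Jmjd2c arrays. It was above the floor on 2 of 3 Luc 1-3, 0 of 3 Jmjd1a and 0 of 3 Luc 4-6 arrays, so its calls are not read as changes. Against all 6 Luc arrays the calls on Dab2, Amn and Cubn for Jmjd1a and on Dab2 and Cubn for Jmjd2c were lost. The part of these marker differences in the results given here was not tested. In bulk RNA, fewer cells of a type and less RNA per cell cannot be told apart.

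Nodal and the activins are secreted ligands of the TGF-beta family. They bind type II receptors such as that encoded by Acvr2b, which activate type I receptors, and these phosphorylate SMAD2 and SMAD3; with SMAD4 these factors enter the nucleus and act with partners such as FOXH1. Nodal also needs the coreceptor Cripto, encoded by Tdgf1. The Lefty proteins and Cerberus, encoded by Cer1, block Nodal outside the cell. Nodal, Lefty1 and Lefty2 are themselves targets of the pathway, which is active in mouse ES cells and forms the primitive streak and the left-right axis in the embryo.

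The promoters of Tdgf1, Inhbb and Nodal are shown because Tdgf1 and Inhbb had the largest falls among the members, and Nodal encodes the ligand that names the pathway. Each sequence is the 250 bases before the annotated start in RefSeq's GRCm38.p6 table, read 5′ to 3′ on the gene's strand. The table held 5 of the 9 genes. Capitals mark a SMAD element (CAGAC) or a KLF element (CCACGCCC) on either strand. Tdgf1 lies at chr9:110946159-110946408 on the minus strand, Inhbb at chr1:119422249-119422498 on the minus strand and Nodal at chr10:61417722-61417971 on the plus strand.
Tdgf1: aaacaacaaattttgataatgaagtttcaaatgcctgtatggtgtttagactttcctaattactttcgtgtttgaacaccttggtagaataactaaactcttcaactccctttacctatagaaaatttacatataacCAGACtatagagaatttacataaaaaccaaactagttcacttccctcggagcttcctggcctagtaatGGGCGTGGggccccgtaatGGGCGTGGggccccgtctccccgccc
Inhbb: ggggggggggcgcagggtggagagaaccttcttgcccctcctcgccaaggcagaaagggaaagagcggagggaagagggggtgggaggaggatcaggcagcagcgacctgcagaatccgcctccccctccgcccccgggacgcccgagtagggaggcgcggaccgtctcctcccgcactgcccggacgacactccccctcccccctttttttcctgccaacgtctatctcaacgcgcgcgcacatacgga
Nodal: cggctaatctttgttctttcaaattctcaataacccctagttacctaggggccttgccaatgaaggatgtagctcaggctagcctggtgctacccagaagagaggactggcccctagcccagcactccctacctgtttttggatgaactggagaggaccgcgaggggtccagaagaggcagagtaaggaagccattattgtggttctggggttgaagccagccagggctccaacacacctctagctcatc

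The Tdgf1 promoter held 1 SMAD element and 2 KLF elements, which start 45 and 26 bases before the annotated start and read GGGCGTGG on the gene's strand. The KLF element was searched for after this sequence had been read. A KLF element was present in 4.79% of 32851 promoters of the same length, and 2 or more in 0.615%. The SMAD element was present in 42.2% of them. The FOXH1 element AATNCACA, present in 3.18%, was found in none of the 5 promoters. No element overlapped another in the promoters shown. The Inhbb promoter had 21 CpG dinucleotides, that of Tdgf1 had 7 and that of Nodal had 3, where the median of all promoters was 6. The letters are a description of these windows and say nothing of binding.

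Nodal transcript was readily detected in every culture and was highest after Jmjd2c knockdown. Its intensity was 1277, 1318 and 1289 on the 3 Jmjd1a arrays, 1516, 1518 and 1636 on the Jmjd2c arrays, 1235, 1335 and 1319 on the Luc 4-6 arrays, and 1146, 1219 and 1144 on the Luc 1-3 arrays. Every Jmjd2c array was above all others, whereas the Jmjd1a and Luc 4-6 arrays overlapped. Nodal rose in Jmjd2c arrays by a log2 change of 0.26 ± 0.06 (SE), or 1.20-fold (adjusted p = 0.00316). Against all 6 Luc arrays the change was 0.34 (adjusted p = 0.00966). In Jmjd1a arrays the change was 0.15 ± 0.06 (95% interval 0.02 to 0.27, adjusted p = 0.0808), and the 3 Jmjd1a arrays lay above the 3 Luc 1-3 arrays. It was 0.07 against all 6 Luc arrays (adjusted p = 0.465). The Jmjd1a change passed in limma's fits with an intensity trend (adjusted p = 0.0245), with a floor of 64 (0.0361) or with the 6 arrays of the comparison alone (0.0375).

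Inhbb, which encodes the beta B subunit of activin B and activin AB, had the widest range of the 6 measured genes, 3.76-fold between its highest and lowest group means. It read 117, 119 and 97.8 on the Jmjd1a arrays, against 270, 279 and 273 on the Luc 1-3 arrays. On the Jmjd2c arrays it read 74.1, 79.7 and 65.1, against 132, 111 and 128 on the Luc 4-6 arrays. In both pairs every knockdown array was below every Luc array of its comparison, but the Jmjd1a and Luc 4-6 arrays overlapped. Inhbb fell in Jmjd1a arrays by 1.31 ± 0.10 on the log2 scale, to 40.5% of Luc 1-3 (adjusted p = 2.69e-06), and in Jmjd2c arrays by 0.76 ± 0.10, to 58.9% of Luc 4-6 (adjusted p = 9.88e-05). The Luc cultures differed about as much as the knockdowns: Inhbb was lower in Luc 4-6 than in Luc 1-3 by a log2 difference of -1.15 ± 0.10 (adjusted p = 1.27e-06). Against all 6 Luc arrays the Jmjd1a change was -0.73 and did not pass (adjusted p = 0.121), and the Jmjd2c change was -1.34 (adjusted p = 0.0160).

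Acvr2b, the gene of the type II receptor ActRIIB, passed in neither knockdown. It read 1595, 1609 and 1617 on the Jmjd1a arrays, against 1635, 1802 and 1421 on the Luc 1-3 arrays, whose range enclosed them. The log2 change was -0.00 ± 0.08 (95% interval -0.17 to 0.17, adjusted p = 1.00), and -0.17 against all 6 Luc arrays (adjusted p = 0.297). On the Jmjd2c arrays Acvr2b read 1700, 1833 and 1838, all below the 1986, 2022 and 2065 of the Luc 4-6 arrays. That change was -0.18 ± 0.08 (adjusted p = 0.0912), and -0.01 against all 6 Luc arrays (adjusted p = 0.960). It passed with quantile normalization (-0.22, adjusted p = 0.0375), with an intensity trend (0.0348) and with the 6 arrays of the comparison alone (0.0330). It also passed without Luc replicate 2 (0.0478) or Luc replicate 3 (0.0304), neither of which enters the difference itself, only the estimate of the spread. Acvr2b was higher in Luc 4-6 than in Luc 1-3 arrays by 0.33 ± 0.08 (adjusted p = 0.00308), and the call was lost when the arrays were set to a common median (0.17, adjusted p = 0.0826).

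Tdgf1, the gene of the Nodal coreceptor Cripto, fell to less than 50% in the Jmjd2c arrays. Its informative probe read 1003, 1010 and 1068 there, against 1994, 2324 and 2079 on the Luc 4-6 arrays. The fall was 1.05 ± 0.10 on the log2 scale, to 48.2% (adjusted p = 8.96e-06), and the change was -0.75 against all 6 Luc arrays (adjusted p = 0.0198). These Luc 4-6 arrays were the highest of the series, and the Jmjd2c arrays were the lowest, below every other array. Tdgf1 read 1522, 1245 and 1276 on the Jmjd1a arrays, against 1355, 1576 and 1282 on the Luc 1-3 arrays, and these groups overlapped. The Jmjd1a change was -0.06 ± 0.10 (95% interval -0.27 to 0.15, adjusted p = 0.735), and -0.36 against all 6 Luc arrays (adjusted p = 0.175). Between the Luc groups Tdgf1 was higher in Luc 4-6 than in Luc 1-3 arrays, by 0.61 ± 0.10 or 1.52-fold (adjusted p = 0.00021). A second Tdgf1 probe lay below the floor on all 12 arrays and was not tested.

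**Figure D1:**
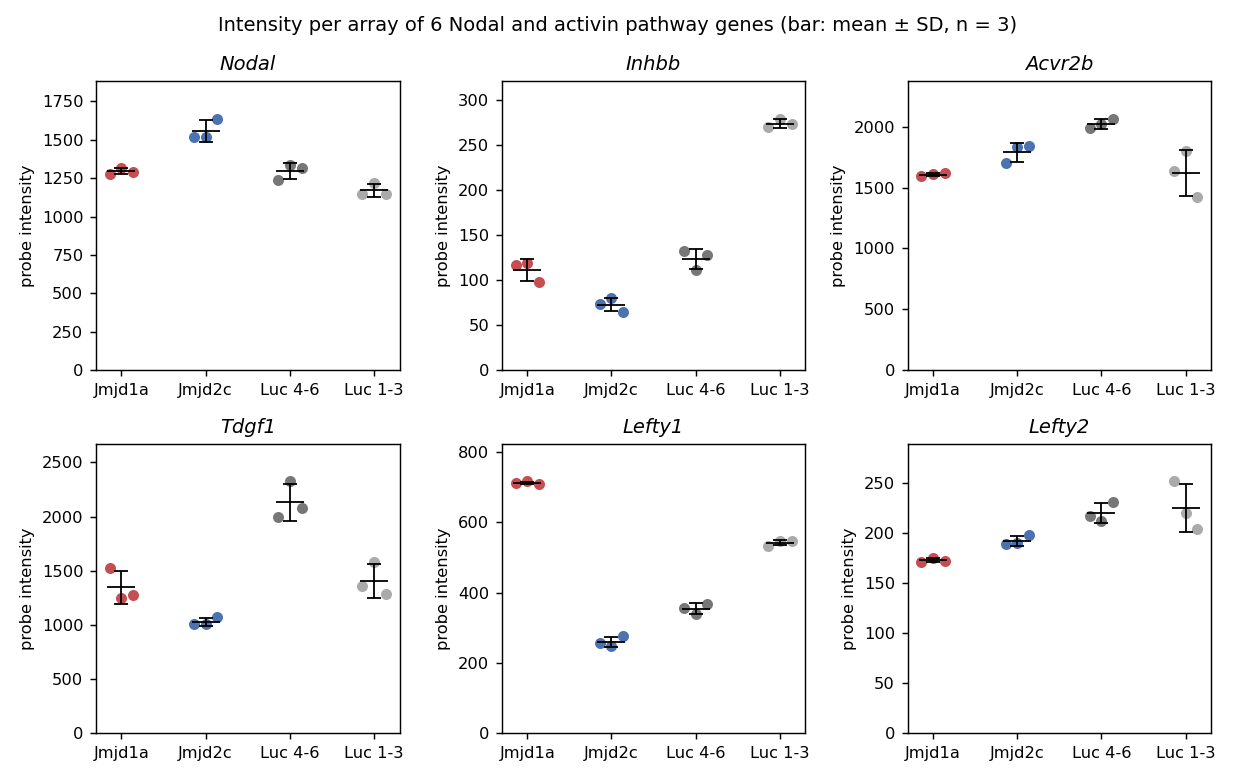
Probe intensity (vertical axis, linear from 0) of the 6 measured genes on each array, with the Jmjd1a, Jmjd2c, Luc 4-6 and Luc 1-3 groups from left to right; points are arrays and bars show the mean ± SD of 3. Tdgf1 is lowest in Jmjd2c arrays (1003 to 1068) and highest in Luc 4-6 arrays (1994 to 2324), and Lefty1 separates all 4 groups.

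Lefty1, a secreted inhibitor of Nodal and a target of its signalling, changed in opposite directions after the knockdowns. It read 712, 717 and 710.2 on the Jmjd1a arrays, against 533, 547 and 546 on the Luc 1-3 arrays. It read 256, 246 and 275 on the Jmjd2c arrays, against 357, 338 and 368 on the Luc 4-6 arrays. All 4 groups lay apart from each other, in the order Jmjd1a, Luc 1-3, Luc 4-6 and Jmjd2c from high to low, with a 2.75-fold range of means. Lefty1 rose in Jmjd1a arrays by 0.40 ± 0.06 on the log2 scale, or 1.32-fold (adjusted p = 0.000339), and fell in Jmjd2c arrays by 0.45 ± 0.06, to 73.1% (adjusted p = 8.3e-05). Against all 6 Luc arrays the changes were 0.70 (adjusted p = 0.0154) and -0.76 (adjusted p = 0.0131). Between the controls, Lefty1 was lower in Luc 4-6 than in Luc 1-3 arrays, by a difference of -0.61 ± 0.06 (adjusted p = 2.36e-06). Of the 6 tested endoderm markers, 4 (Gata6, Dab2, Amn and Cubn) fell in Jmjd1a arrays, where Lefty1 rose and 28.1% of all tested genes were called. Against all 6 Luc arrays Gata6 kept this call (adjusted p = 0.0016), and Dab2 (0.815), Amn (0.0682) and Cubn (0.371) lost it. In Jmjd2c arrays, where Lefty1 fell, 4 (Gata6, Dab2, Cubn and Sox17) were called higher, and 42.4% of genes were called. Of these, Dab2 (adjusted p = 0.24) and Cubn (0.0662) lost their calls against all 6 Luc arrays. Gata4 passed in neither knockdown. Between the Luc groups 5 of the 6, Sox17 among them, were called lower in Luc 4-6, as Lefty1 was, where 61.8% of genes were called. Gata4 was called higher there, by 0.67 (adjusted p = 0.00302). The difference was -1.98 for Dab2 and -2.16 for Cubn. Sox17 entered the test only through the Jmjd2c arrays, so its calls are not read as changes.

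Lefty2, the neighbouring paralogue with the same inhibitory role, fell in Jmjd1a arrays, where Lefty1 rose. It read 171, 175 and 172 on the Jmjd1a arrays, against 252, 220.3 and 204 on the Luc 1-3 arrays. Every Jmjd1a array was below every other array of the series. Lefty2 fell by 0.38 ± 0.07 on the log2 scale, to 77.0% (adjusted p = 0.00266), with a change of -0.36 against all 6 Luc arrays (adjusted p = 0.00603). On the Jmjd2c arrays it read 189, 189.7 and 198, below the 217, 212 and 231 of the Luc 4-6 arrays. The change of -0.19 ± 0.07 did not pass (95% interval -0.35 to -0.03, adjusted p = 0.0540), nor did that of -0.21 against all 6 Luc arrays (adjusted p = 0.0855). It passed with quantile normalization (-0.22, adjusted p = 0.0383), a common array median (-0.22, 0.0382), only probes above 32 on all arrays (0.0412), only the arrays of the comparison (0.0290), and without Luc replicate 1 (0.0216) or Luc replicate 3 (0.0312). The difference of Luc 4-6 from Luc 1-3 was -0.03 ± 0.07 (adjusted p = 0.747) as deposited, -0.21 after quantile normalization (adjusted p = 0.0305) and -0.19 with a common median (adjusted p = 0.0427).

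Cer1, the gene of the Nodal and BMP antagonist Cerberus, and Skil, whose product SnoN represses SMAD target genes, were not detected. The Cer1 probe read between -11.0 and 3.2 over the 12 arrays and the Skil probe between -4.5 and 11.2, all below the floor of 32. Values at this level are background, so no group was compared. A probe below the floor does not show that the transcript is absent.

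**Figure D2:**
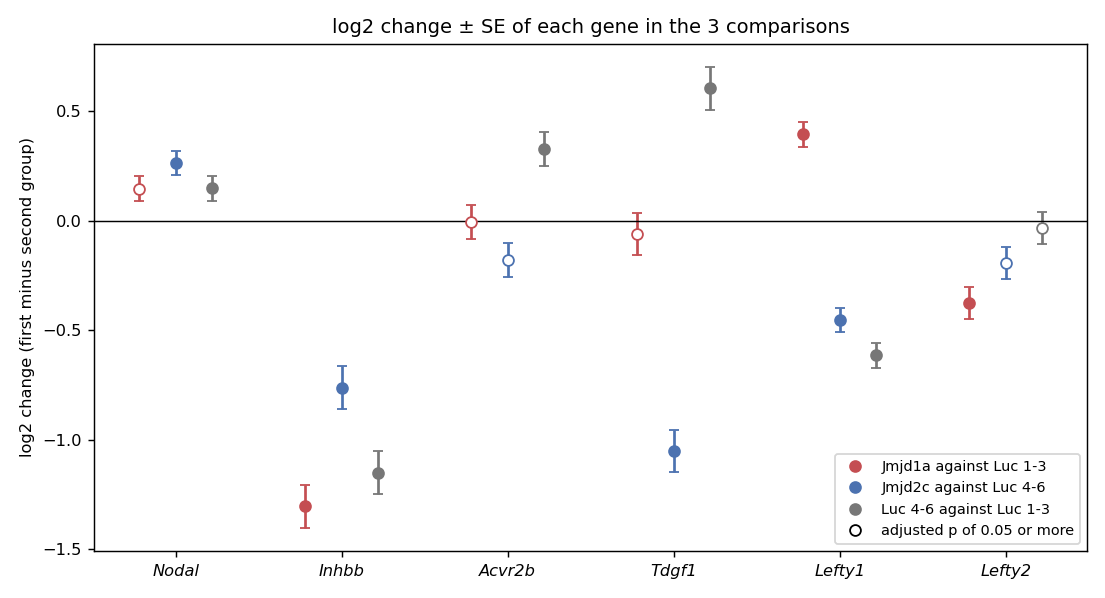
log2 change ± SE (vertical axis) of the 6 measured genes, for Jmjd1a against Luc 1-3, Jmjd2c against Luc 4-6 and Luc 4-6 against Luc 1-3; open points have an adjusted p of 0.05 or more. Lefty1 lies at 0.40 for Jmjd1a and -0.45 for Jmjd2c, and Inhbb is below 0 in all 3 comparisons.

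Each of the 6 measured genes was above the floor on all 12 arrays, so its entry into the test did not depend on 1 group. In Jmjd1a arrays 1 of them rose (Lefty1), 2 fell (Inhbb and Lefty2) and 3 did not pass. Of all tested probes 25.5% were called in that comparison, 13.4% higher and 12.1% lower. In Jmjd2c arrays 1 rose (Nodal), 3 fell (Inhbb, Tdgf1 and Lefty1) and 2 did not pass, where 39.0% of all tested probes were called, 20.7% higher and 18.2% lower. The Jmjd1a and Luc 1-3 arrays did not overlap for 4 of the 6 genes, and for 40.7% of tested probes. The Jmjd2c and Luc 4-6 arrays did not overlap for 6 of the 6, and for 49.9% of tested probes. The median change of the 6 was -0.03 for Jmjd1a, against 0.00 for all tested probes, and -0.32 for Jmjd2c, against 0.01. The fall of Inhbb in Jmjd1a arrays was exceeded by 0.328% of tested probes, and that of Tdgf1 in Jmjd2c arrays by 1.19%.

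Between the control triplets 3 of the 6 genes were higher in Luc 4-6 (Nodal, Acvr2b and Tdgf1), 2 were lower (Inhbb and Lefty1) and 1 did not pass, where 58.0% of all tested probes were called, 37.1% higher and 20.9% lower. The median difference of the 6 was 0.06, against 0.10 for all tested probes. Scaling shifted the latter to -0.02 (quantile) or -0.03 (common array median), so small differences here depend on it. The Nodal difference was 0.15 ± 0.06 (adjusted p = 0.0407) as deposited and turned to -0.01 with a common median (adjusted p = 0.846). Its call was also lost with the 6 arrays of the comparison alone (adjusted p = 0.0535), and without Luc replicate 1, 3, 5 or 6 or any 1 of the Jmjd1a arrays (adjusted p up to 0.125). Inhbb, Tdgf1 and Lefty1 kept their direction and their calls in every alternative run for this comparison. The Luc comparison shares its arrays with both knockdown comparisons, so the 3 sets of changes are not independent.

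**Figure D3:**
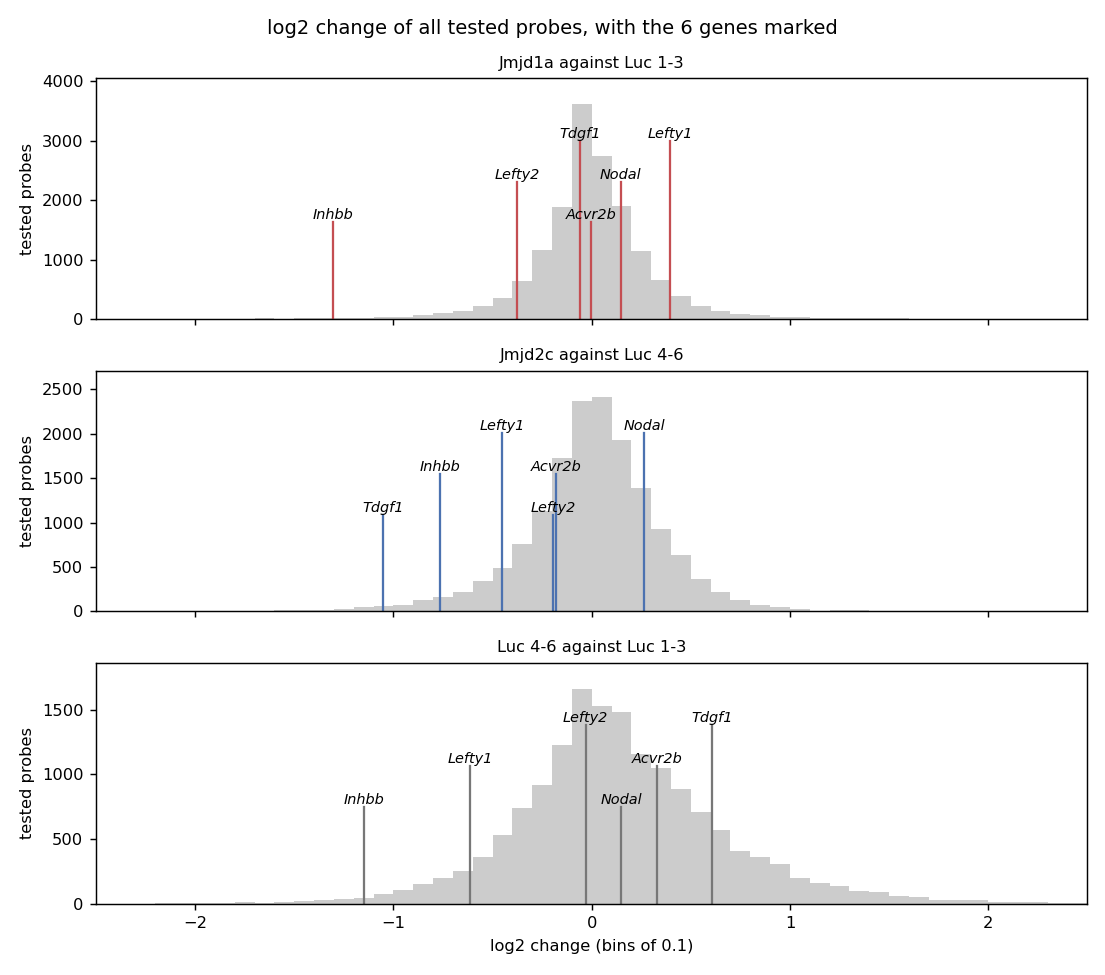
Number of tested probes (vertical axis) by log2 change (horizontal axis, bins of 0.1) in the 3 comparisons, with vertical lines at the changes of the 6 genes; line height has no meaning. Inhbb (-1.31 for Jmjd1a) and Tdgf1 (-1.05 for Jmjd2c) lie in the left tails, and the Luc comparison is the widest of the 3.

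The knockdown changes were compared directly as the Jmjd1a change minus the Jmjd2c change, each against its own Luc arrays. This difference passed for 3 of the 6 genes, where 24.2% of all tested probes were called, 12.4% higher and 11.8% lower. It was 0.99 ± 0.14 for Tdgf1 (adjusted p = 0.000393), 0.85 ± 0.08 for Lefty1 (adjusted p = 2.67e-05) and -0.54 ± 0.14 for Inhbb (adjusted p = 0.0146). Tdgf1 and Lefty1 were thus lower after Jmjd2c than after Jmjd1a knockdown relative to their Luc arrays. The size for Tdgf1 depended on the controls, since Tdgf1 was higher in Luc 4-6 than in Luc 1-3 arrays by 0.61. Against all 6 Luc arrays the Jmjd1a and Jmjd2c changes were -0.36 and -0.75 for Tdgf1, and 0.70 and -0.76 for Lefty1. Inhbb fell more after Jmjd1a knockdown relative to its Luc arrays, but this order depended on the controls. Against all 6 Luc arrays its change was -0.73 for Jmjd1a and -1.34 for Jmjd2c, and the Luc triplets themselves differed by -1.15. The difference between knockdowns for Inhbb also did not pass when low probes were kept in the test (adjusted p = 0.0936). For Nodal (-0.12, 95% interval -0.29 to 0.06), Acvr2b (0.17, -0.07 to 0.41) and Lefty2 (-0.18, -0.41 to 0.04) the difference did not pass.

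The wider pathway was described through a list of 59 other genes, 57 of which had a probe and 36 of which were tested, with 1 probe per gene. In Jmjd1a arrays 10 rose and 4 fell, or 38.9% of the 36, against 28.1% of all tested genes. In Jmjd2c arrays 10 were called higher and 6 lower, or 44.4%, against 42.4%; among the 10 is Tgfbr2, which entered the test only through these arrays. In Luc 4-6 arrays 18 were higher and 4 lower than in Luc 1-3, or 61.1%, against 61.8%. The median log2 change of the 36 was 0.05 for Jmjd1a, 0.01 for Jmjd2c and 0.17 for the Luc comparison. Against all 6 Luc arrays 8 were called for Jmjd1a, with the calls on Gdf1, Gdf3, Tgfbr3, Tgfbr1, Smurf2, Ppm1a and Eomes lost and one on Dact2 gained. For Jmjd2c 8 were called, with those on Gdf3, Fst, Ltbp1, Pcsk6, Cited2, Trim33, Smad3 and Nedd4l lost. With the replicate number as a block 9 were called for Jmjd1a.

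Among ligands related to Nodal, Gdf1 fell in Jmjd2c arrays, and its other change and those of Gdf3 depended on the setting. Gdf1, whose product pairs with Nodal and whose mRNA is shared with Cers1, read 269 ± 21.2 in Jmjd1a and 225 ± 10.5 in Luc 1-3 arrays (SD, n = 3), a log2 change of 0.26 ± 0.08 (SE, adjusted p = 0.0367). This call was lost with no filter (0.153), a floor of 64 (0.0509), the arrays of the comparison alone (0.0641), the replicate block (0.173), all 6 Luc arrays (0.0629), and without Jmjd1a replicate 1 or 3 or Luc replicate 1, 2 or 3 (0.0523 to 0.142). In Jmjd2c arrays it read 147 ± 13.0, against 233 ± 11.4 in Luc 4-6 arrays, and fell by 0.67 ± 0.08 (adjusted p = 6.5e-05). Gdf3, a ligand expressed in pluripotent cells, fell by 0.37 in Jmjd1a arrays and rose by 0.21 in Jmjd2c arrays (adjusted p = 0.00111 and 0.0206). Neither passed against all 6 Luc arrays, with changes of -0.03 for Jmjd1a (adjusted p = 0.931) and -0.14 for Jmjd2c (adjusted p = 0.695). The Jmjd2c call was also lost without Jmjd2c replicate 1 (0.0867) or Luc replicate 6 (0.0762). Gdf3 was lower in Luc 4-6 than in Luc 1-3 arrays by a difference of -0.68. The other activin subunit genes, Inhba, Inha, Inhbc and Inhbe, were below the floor on every array.

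Among receptors, Tgfbr3, the gene of the TGF-beta coreceptor betaglycan, rose in Jmjd1a arrays by 0.89 ± 0.07, to 73.8 ± 3.68, against 39.9 ± 1.61 in Luc 1-3 arrays (adjusted p = 2.82e-06). Tgfbr1, a type I receptor gene, rose by 0.17 in Jmjd1a and by 0.39 in Jmjd2c arrays (adjusted p = 0.0245 and 8.91e-05), and the Jmjd1a call was lost without Jmjd1a replicate 1 (0.102), Luc replicate 1 (0.0651) or Luc replicate 2 (0.0655). Tgfbr2, the type II receptor gene of TGF-beta, read 68.3 ± 15.1 in Jmjd2c and 29.0 ± 12.1 in Luc 4-6 arrays. It entered the test only through the 3 Jmjd2c arrays, since 1 of 3 Luc 4-6, 1 of 3 Jmjd1a and 0 of 3 Luc 1-3 arrays were above the floor, so its call is not read as a change. Acvr1b, the gene of the main type I receptor of Nodal and activin, did not pass in either knockdown (-0.18 and -0.42), though another of its probes fell in Jmjd2c arrays (-0.38, adjusted p = 0.0407). Tgfbr3 read 66.9 ± 4.92 in Luc 4-6 and 39.9 ± 1.61 in Luc 1-3 arrays, a difference of 0.74 that did not pass with a floor of 64 (0.08, adjusted p = 0.191). Acvr1b read 81.0 to 92.2 in Luc 4-6 and 28.9 to 47.8 in Luc 1-3 arrays, of which 2 of 3 were above the floor. Acvr2a read 59.7 ± 10.1 in Luc 4-6 and 31.7 ± 5.79 in Luc 1-3 arrays, of which 1 of 3 was above the floor, so no exact difference is given for either gene.

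Fst, the gene of the activin-binding inhibitor follistatin, had the largest rise of the list in Jmjd1a arrays. It read 161 ± 5.70 there and 55.9 ± 7.63 in Luc 1-3 arrays, a change of 1.53 ± 0.09, or 2.89-fold (adjusted p = 5.52e-07). In Jmjd2c arrays it read 62.0 ± 0.945, against 30.8 ± 5.38 in Luc 4-6 arrays, of which 1 of 3 was above the floor. That change of 0.89 on the floored scale passed (adjusted p = 2.15e-05). It was 0.52 against all 6 Luc arrays (adjusted p = 0.132), and the Jmjd2c and Luc 4-6 values all lay under a floor of 64. Tmeff1, the gene of a membrane protein that binds Cripto in Xenopus, fell by 0.40 in Jmjd1a and by 0.33 in Jmjd2c arrays (adjusted p = 0.00025 and 0.000648). Pcsk6, which encodes the convertase PACE4 that processes Nodal, fell by 0.39 and by 0.27 (adjusted p = 0.000429 and 0.00338). Ltbp1, a TGF-beta binding matrix protein gene, fell in Jmjd2c arrays by 0.42 (adjusted p = 0.0295), a call lost without Jmjd2c replicate 2 or 3 or Luc replicate 5 or 6 (0.0565 to 0.117), and differed by 0.23 against all 6 Luc arrays (adjusted p = 0.733).

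All 6 tested genes of intracellular transducers passed in Jmjd2c arrays, 5 higher and 1 lower, where 42.4% of all tested genes were called, and 3 of the 6 rose in Jmjd1a arrays, where 28.1% were. The Jmjd2c calls on Cited2 (0.05, adjusted p = 0.944), Trim33 (0.29, 0.0680) and Smad3 (-0.12, 0.356) were lost against all 6 Luc arrays. Those on Trim33 and Smad4 were also lost with a common array median (0.0505 and 0.0608), for Trim33 without Jmjd2c replicate 2 or 3 or Luc replicate 4 or 6 (0.0857 to 0.124), and for Smad4 without Jmjd2c replicate 1 or 2 or Luc replicate 5 or 6 (0.0503 to 0.114). Smad2 read 217 ± 13.4 in Jmjd2c and 134 ± 5.34 in Luc 4-6 arrays, a change of 0.69 ± 0.07 (adjusted p = 1.44e-05), and the change was 0.23 in Jmjd1a arrays (adjusted p = 0.0285). The Jmjd1a call was lost with no filter (0.0887), the arrays of the comparison alone (0.0558), the replicate block (0.102), and without Jmjd1a replicate 1 or 2 or Luc replicate 1 or 3 (0.0624 to 0.107). Smad3 fell by 0.21 in Jmjd2c arrays (adjusted p = 0.0100). Cited2, the gene of a CBP and p300 binding coactivator, rose by 0.50 in Jmjd1a and by 0.66 in Jmjd2c arrays (adjusted p = 2.49e-05 and 1.98e-06), and was lower in Luc 4-6 than in Luc 1-3 arrays by a difference of -1.22. Probes of 1 gene disagreed for Smad4, where 1 probe rose in Jmjd2c arrays (0.17, adjusted p = 0.0328) and the other did not pass (-0.11, adjusted p = 0.133). In Jmjd1a arrays only the second probe passed (0.17, adjusted p = 0.0424). Of the 4 Trim33 probes, 2 rose in Jmjd1a and 2 in Jmjd2c arrays. Foxh1 was below the floor on every array.

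Of 10 tested inhibitor genes 2 rose and 1 fell in Jmjd1a arrays, and 1 rose and 1 fell in Jmjd2c arrays, or 30.0% and 20.0% of them, against 28.1% and 42.4% of all tested genes. The ubiquitin ligase gene Nedd4l fell by 0.30 in Jmjd1a and by 0.72 in Jmjd2c arrays (adjusted p = 0.00112 and 1.34e-06). Nedd4l was also higher in Luc 4-6 than in Luc 1-3 arrays, by 0.75 ± 0.05 (adjusted p = 2.21e-07). Smurf2 rose by 0.48 in Jmjd1a and by 0.24 in Jmjd2c arrays (adjusted p = 0.000777 and 0.0256), but its other tested probe passed in neither (0.19, adjusted p = 0.131, and 0.03, 0.824). The Jmjd2c call on Smurf2 was lost with an intensity trend (0.0668) or no filter (0.0991). It was also lost without Jmjd2c replicate 1 or 2 or Luc replicate 4 or 5 (0.0518 to 0.1). Of the 3 tested mesendoderm targets, Eomes, a T-box gene of the primitive streak, rose in Jmjd1a arrays to 108 ± 8.69, against 51.5 ± 0.777 in Luc 1-3 arrays (1.06 ± 0.11, adjusted p = 3.62e-05). Its change was -0.06 in Jmjd2c arrays (adjusted p = 0.734). Against all 6 Luc arrays the Jmjd1a change of Eomes was 0.68 (adjusted p = 0.0539). Eomes was higher in Luc 4-6 than in Luc 1-3 arrays by 0.76 ± 0.11 (adjusted p = 9.97e-05). Gsc and Otx2 did not pass in either knockdown, and Mixl1 and Lhx1 were below the floor on every array.

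**Figure D4:**
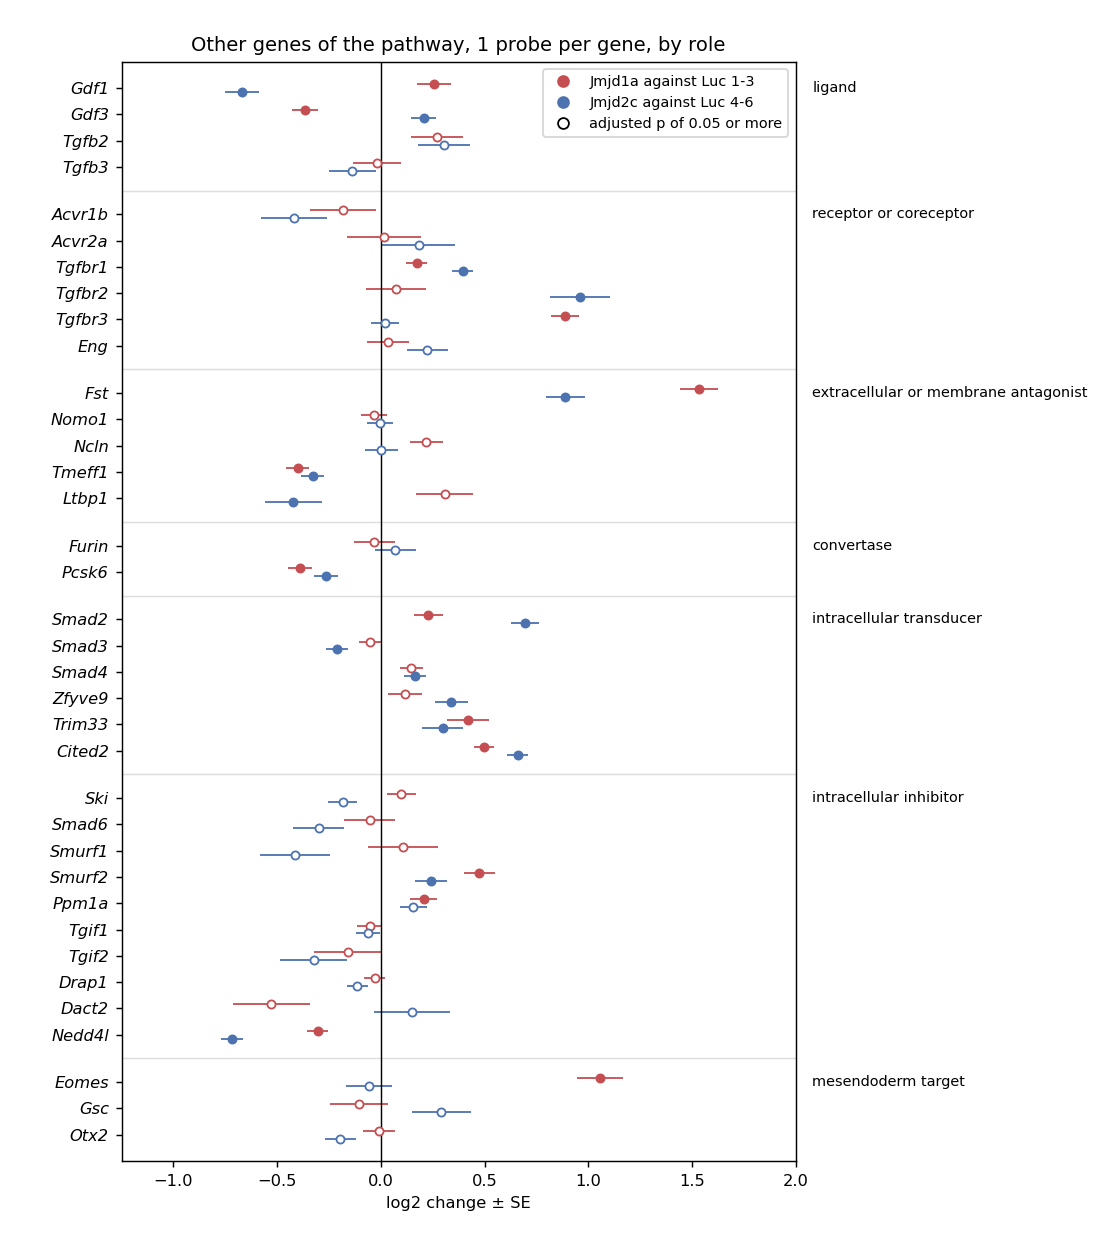
log2 change ± SE (horizontal axis) of the 36 tested genes of the wider list, grouped by role from ligands at the top to mesendoderm targets at the bottom, for Jmjd1a against Luc 1-3 and Jmjd2c against Luc 4-6; open points have an adjusted p of 0.05 or more. Fst is farthest to the right (1.53 for Jmjd1a), and the points of Gdf1 lie on opposite sides of 0.

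The genes with the most similar pattern were sought among 9458 probes above the floor on all 12 arrays, by Pearson's r of log2 intensity over the arrays. The arrays fall into separate groups, so these r values describe likeness of pattern only. For Tdgf1 they were the glycolytic enzyme gene Pgk1 (r = 0.982), Cyp2s1 (0.955) and Nampt (0.947), with r of 0.988, 0.964 and 0.950 after the mean of each array set was subtracted. For Lefty1 they were the cholesterol synthesis gene Sqle, Dtd1 and Arhgef3 (0.987 each, and 0.911 to 0.934 within sets). For Inhbb they were Zfp979, E2f2 and Eif4ebp2 (0.962 to 0.972), and for Nodal they were Rabl2, Fbxw9 and Ammecr1l (0.964 to 0.973). For Lefty2 they were Fkbp5, Tdrd12 and Elmo1 (0.915 to 0.927), and for Acvr2b Ckap5, Ireb2 and Znrd1as (0.945 to 0.970).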

How the data were processed

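Total RNA of 12 cultures was hybridised to one-colour bead arrays. The authors deposited an intensity for each probe on a linear scale. Between 35.0% and 36.8% of the values on each array lie below 0, as after background subtraction. How they were made, any scaling and the genome build are not given in the sources used here. Values were used as deposited, set to a floor of 32 and put on the log2 scale. limma 3.58.1 in R 4.3.3 (lmFit, eBayes) was fitted to the 4 triplets together, with 8 residual degrees of freedom, and p-values were adjusted by Benjamini-Hochberg over all 15853 tested probes. Intervals are 95% from that fit. The fit was tested on simulated data. For lists, the probe with the highest mean stood for a gene. Symbols came from the platform annotation (29542 probes with 1 symbol, 11 with several, 16580 with none). Members and lists were chosen with earlier results of these data known. The genes selected were the 9 members and, per comparison and role of the wider list, up to 3 of the largest called changes each way. The text does not name every gene so selected. It also names the 3 most similar genes per member. Same-numbered Jmjd1a and Luc replicates did not deviate together (r = -0.00, 0.01 and 0.11). Alternatives were other scalings, floors and filters, an intensity trend, smaller fits, all 6 Luc arrays, a replicate block and leaving out each array.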

Additional observations from a re-analysis of the deposited data

Results flagged for a closer look

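For 30 selected genes the Jmjd1a change minus the Jmjd2c change, each against its own Luc arrays, was tested within the limma fit. Of these 13 passed, 3 of them among the 6 tested members, where 25.9% of all tested genes were called. The genes of the wider list were selected for called changes in these same data. The count of 13 is therefore not read as a result. These 13 were singled out because the change differed between the knockdowns. Among the members the difference was 0.99 for Tdgf1 (adjusted p = 0.000393), 0.85 for Lefty1 (2.67e-05) and -0.54 for Inhbb (0.0146). In the wider list it was 1.11 for Eomes (0.000437), 0.92 for Gdf1 (0.000179), 0.87 for Tgfbr3 (7.61e-05), 0.73 for Ltbp1 (0.0177), 0.64 for Fst (0.00425) and 0.41 for Nedd4l (0.00182), each higher relative to Luc after Jmjd1a than after Jmjd2c knockdown. It was -0.89 for Tgfbr2 (0.00842), a gene that entered the test only through the Jmjd2c arrays, -0.57 for Gdf3 (0.000758), -0.47 for Smad2 (0.00481) and -0.22 for Tgfbr1 (0.0398). Several of these calls did not hold. Tgfbr2 lost it with a floor of 16 (0.311), a floor of 64 (0.341) or no filter (0.0793), Ltbp1 with a floor of 64 (0.130) or no filter (0.133), Fst with a floor of 16 (0.0638) and Tgfbr3 with a floor of 64 (0.0537). Inhbb lost it with no filter (0.0936), and against all 6 Luc arrays its fall was larger for Jmjd2c (-1.34) than for Jmjd1a (-0.73). Tgfbr1 lost it with a common array median (0.0529) and without any 1 of the Jmjd2c or Luc arrays, Jmjd1a replicate 2 or Jmjd1a replicate 3 (0.0529 to 0.0886). As for Inhbb, the order of the knockdowns turned against all 6 Luc arrays for Nedd4l (-0.68 for Jmjd1a and -0.34 for Jmjd2c). It also turned for Ltbp1 (-0.35 and 0.23) and Gdf3 (-0.03 and -0.14). For Eomes these changes were 0.68 and 0.32.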

How the results depend on the processing

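Under the alternatives 2 to 4 of the 6 tested members were called for Jmjd1a and 4 to 6 for Jmjd2c. The count was 4 to 6 for the Luc comparison and 2 or 3 for the difference between knockdowns. The calls on all probes moved by more than 1.5 times in some settings. With no filter on low values 2624 were called for Jmjd1a (4040 as reported) and 2331 for the difference (3844). Against all 6 Luc arrays 1896 were called for Jmjd2c (6176 as reported). With the replicate block, for which the numbers gave no support, Jmjd1a had 2159 calls, and the call on Lefty2 was lost (adjusted p = 0.0861), while those on Inhbb (0.0242) and Lefty1 (0.0231) held. No block was fitted for Jmjd2c, whose replicate numbers 1 to 3 do not occur in Luc 4-6, so its dependence on a pairing was not tested. Leaving out 1 array gave 3218 to 4099 calls for Jmjd1a, 5206 to 6221 for Jmjd2c, 8430 to 9307 for the Luc comparison and 3179 to 3532 for the difference, with 3, 4 to 6, 4 to 5 and 3 members called. Signs turned for Nodal between the Luc groups with a common array median (-0.014) and, against all 6 Luc arrays in the Jmjd2c comparison, for Gdf3 (-0.14) and Ltbp1 (0.23). Of the members' changes under the settings that keep every array, 186 kept their call and direction, 12 gained a call, 5 lost one and 1 turned. The causes were not tested. Cer1, Skil and the second Tdgf1 probe lay at background, which limits what can be said of them.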
